A study of Mus musculus with 2 samples.

Results

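Genes of iron uptake, export, storage and haem breakdown were examined in villi of the mouse small intestine, the mucosal fingers that carry the absorptive epithelium. They were chosen by symbol as Cybrd1, Slc11a2, Slc40a1, Heph, Fth1, Ftl1, Tfrc and Hmox1, 8 of 20722 symbols in the table, each represented by its transcript with the highest mean. RNA sequencing compared 1 library of each of 2 genotypes, both C57BL/6. The control carried Rosa26-CreERT2 and Cdkn2a-/-. The other library was labelled with these same alleles plus Ring1a-/- and Ring1bf/f, and is called RingKO-labelled here after its title, for the double knockout of the Polycomb E3 ligases Ring1a and Ring1b. Both genotypes received 3 tamoxifen injections, and tissue was taken 6 days after injection. The Rosa26 locus is active in most cell types, so CreERT2 is not limited to the epithelium, and Cdkn2a was absent from the control as well. Age, sex and the number of animals pooled per library are not stated by the labels.

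Enterocytes of the proximal intestine take up dietary iron in steps. Cybrd1 (duodenal cytochrome b) reduces ferric iron at the brush border, Slc11a2 (DMT1) carries ferrous iron into the cell, and Slc40a1 (ferroportin) exports it across the basolateral membrane, where the copper oxidase Heph (hephaestin) oxidises it for loading onto transferrin. Fth1 and Ftl1 encode the heavy and light subunits of ferritin, the iron store, Tfrc encodes the transferrin receptor, which brings in iron from the blood side, and Hmox1 releases iron from haem. Iron regulatory proteins tie several of these mRNAs to the iron level of the cell by binding a hairpin, the iron-responsive element: a hairpin in the 5′ UTR blocks translation when bound, and hairpins in the 3′ UTR protect the mRNA.

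The hairpin was searched for because the genes it links have different values below. The pattern, read on the sense strand of GENCODE M21 transcripts (GRCm38), was a C, 5 bases of any kind and the loop CAGTGN, with the 5 bases before the loop able to pair with the 5 bases after it and G-U pairs allowed. It was found in 4 of the 8 genes, against 294 of 21877 genes with a protein-coding transcript (1.34%). The 7 sequences found are shown 5′ to 3′ as DNA, with the bulged C and the loop of 6 bases in capitals.
Fth1, 5′ UTR, chr19:9982732-9982761 (+): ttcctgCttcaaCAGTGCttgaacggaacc
Ftl1, 5′ UTR, chr7:45459778-45459807 (-): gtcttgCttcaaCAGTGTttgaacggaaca
Slc40a1, 5′ UTR, chr1:45925464-45925493 (-): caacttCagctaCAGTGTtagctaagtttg
Tfrc, 3′ UTR, chr16:32631219-32631248 (+): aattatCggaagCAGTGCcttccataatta
Tfrc, 3′ UTR, chr16:32631598-32631627 (+): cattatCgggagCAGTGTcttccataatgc
Tfrc, 3′ UTR, chr16:32631663-32631692 (+): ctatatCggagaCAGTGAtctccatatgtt
Tfrc, 3′ UTR, chr16:32631710-32631739 (+): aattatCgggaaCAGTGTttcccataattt

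The ferritin hairpins of Fth1 and Ftl1 were identical at 26 of 30 bases, whereas the Slc40a1 hairpin was identical to either of them at 13 of 30. The loop started at base 90 of the Ftl1 transcript, base 102 of the Slc40a1 transcript and base 99 of the coding Fth1 transcript NM_010239. In NR_073181, the Fth1 transcript that has values here, it started at base 670. The 4 Tfrc hairpins began at bases 3327, 3706, 3771 and 3818 of a transcript of 4890 bases, behind a coding sequence that ended at base 2429. No match was found in the models of Cybrd1, Heph, Hmox1 or either Slc11a2 transcript, which says only that this pattern is not in these models.

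**Figure D1:**
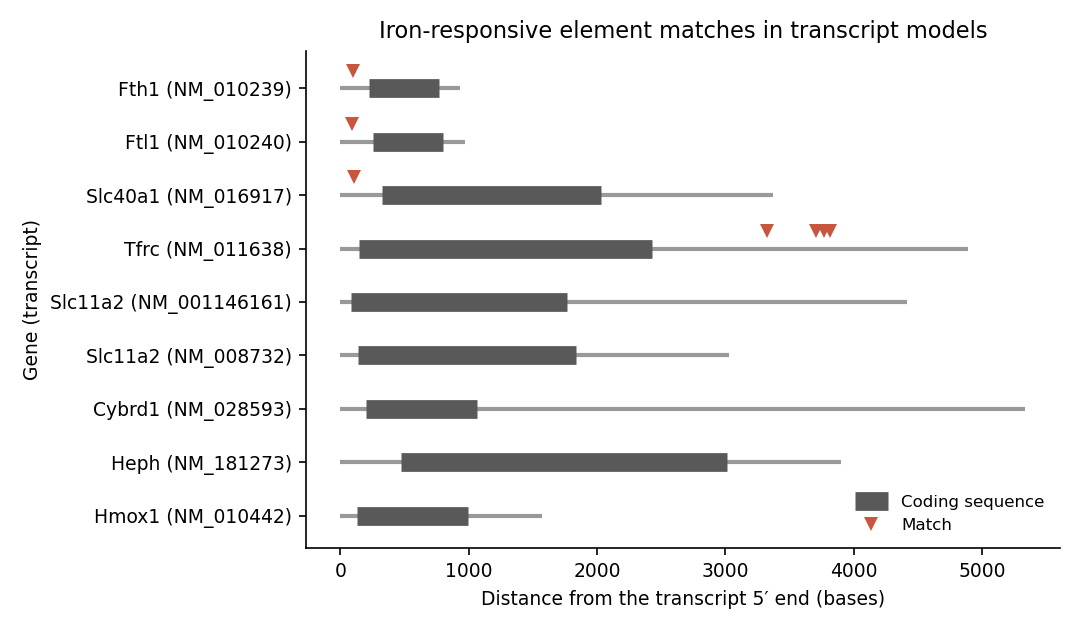
Transcript models of the iron genes, by distance from the 5′ end in bases, with the coding sequence as a thick bar and each iron-responsive element match as a triangle. Fth1, Ftl1 and Slc40a1 have 1 match each before the coding sequence, and Tfrc has 4 behind it.

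The control library held 775827 reads and the RingKO-labelled library 1058196, as recovered from the deposited normalised counts. With 1 library per genotype no difference has a replicate check. Each ratio compares these libraries, not the genotypes, and its 95% exact interval (Clopper-Pearson) covers counting error only. The targeted genes were not lower by more than counting error: Ring1 had 10 reads in each library and Rnf2 (Ring1b) 59 in the control library and 82 in the RingKO-labelled one. Counts over whole transcripts do not show whether an exon was deleted, so they check nothing about the label. Xist had 80 reads in the control library and 1 in the RingKO-labelled one, and the Y-linked Ddx3y 0 and 131, so genotype and sex cannot be told apart.

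Among the iron genes the libraries differed in both directions. By the authors' size factors the exporter Slc40a1 and the receptor Tfrc were about 3-fold higher in the RingKO-labelled library. On the same scale the reductase Cybrd1 and the haem oxygenase Hmox1 were more than 2-fold lower, and Ftl1 was level with the control. A gene counted as measured at a mean normalised count (reads plus 1, divided by the library's size factor) of at least 20, and as higher or lower when log2((RingKO + 1)/(control + 1)) reached 2-fold. Of the 8 genes 6 were measured, 2 of them higher and 2 lower. Over all 6001 measured genes 26.2% were higher and 4.18% lower by the same rule, so 2 of 6 higher is near the share among all genes. The median log2 ratio was 0.25 over the 6 iron genes and 0.51 over all measured genes. Relative to that median, 2 iron genes lay at least 2-fold above it and 2 at least 2-fold below, against 11.8% and 10.4% of all measured genes. The counting interval of the ratio lay wholly above 1 for 2 of the 6 and wholly below 1 for 2, against 52.5% and 12.1% of all measured genes. Of the 6 genes 5 had a mean of 20 to 200, a range in which the same rule placed 30.3% of 4760 genes higher and 4.18% lower.

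**Figure D2:**
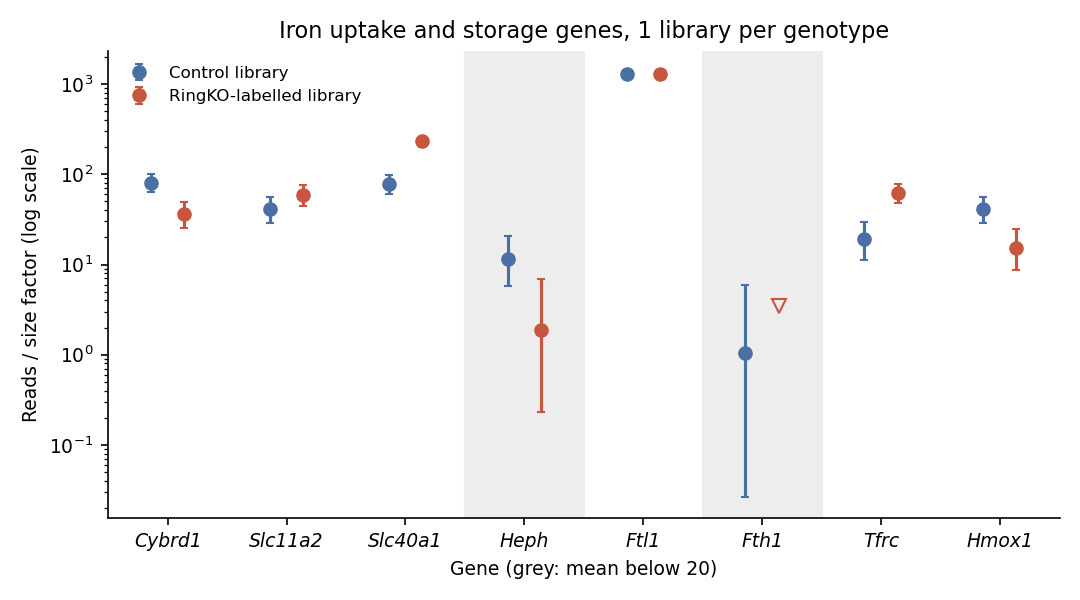
Reads divided by the size factor (log axis) for the 8 iron genes in the control library (blue) and the RingKO-labelled library (red), with 95% exact Poisson intervals, and an open triangle at the upper limit where the count was 0. Slc40a1 and Tfrc are higher in the RingKO-labelled library, Cybrd1 and Hmox1 lower, and Heph and Fth1 (grey) are below a mean of 20.

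At the brush border the reductase and the importer had different ratios. Cybrd1 (NM_028593) had 77 reads in the control library and 38 in the RingKO-labelled one, normalised counts of 82.2 and 37.0. It was 2.25-fold lower (1.51 to 3.41), and only 195 of 6001 measured genes had a lower log2 ratio.

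Slc11a2 was counted as 2 transcripts that share 1708 bases and have different 3′ ends. The transcript with the higher mean (NM_001146161) had 39 reads in the control library and 62 in the RingKO-labelled one, normalised counts of 42.1 and 59.8. Its ratio of 1.43 had an interval that included 1 (0.945 to 2.20), and its log2 ratio of 0.50 lay next to the median of measured genes. The other transcript (NM_008732) had 17 and 41 reads, a ratio of 2.17 (1.21 to 4.08). It made up 30.4% of the Slc11a2 reads in the control library and 39.8% in the RingKO-labelled one. Both together had 56 and 103 reads, a ratio of 1.66 (1.19 to 2.34). Reads that fall in the shared bases cannot be assigned to 1 transcript, so the split is uncertain.

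The label duodenal does not describe the tissue, which was villi of the whole small intestine per the labels. Of 9 listed markers of the proximal intestine, all detected, the summed reads were 5111 in the control library and 6295 in the RingKO-labelled one, 1.11 times the control after scaling (1.07 to 1.15). The 8 distal markers in the table had 1752 and 3230 reads, a ratio of 1.66 (1.57 to 1.76), with the ileal bile acid binding protein gene Fabp6 at 188 and 524. These ratios use the authors' size factors. As a share of all reads the proximal markers went from 0.659% to 0.595% and the distal ones from 0.226% to 0.305%. The direction of the proximal sum therefore follows the scaling. Apoa4 made up 49.5% of the proximal reads in the control, and without it the proximal ratio was 1.28 (1.22 to 1.35), while the distal ratio without its most abundant gene, Clec2h, was 2.05 (1.89 to 2.21). The proximal markers differed among themselves, with the lactase gene Lct 4.15-fold higher (3.53 to 4.89) and the alcohol dehydrogenase gene Adh6a 1.54-fold lower (1.39 to 1.71). The lower Cybrd1 value stands beside this difference, whose part in it was not tested. In whole tissue, fewer cells of a type and less RNA per cell cannot be told apart. Of 12 listed genes of absorptive enterocytes 10 were measured and none was at 0. Their summed reads had a ratio of 1.26 (1.23 to 1.29), below the median fold of 1.42 of all measured genes on the same scale. As a share of all reads they were at 1.16% in the control library and 1.19% in the RingKO-labelled one. The direction of this sum therefore follows the scaling too. Single genes ran from Apoa4 at 2529 and 2618 reads to the sucrase gene Sis at 37 and 357. Mttp, below the limit of 20, was at 24 and 10. Lct, Sis and Mttp were named after their values were seen.

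At the basolateral side the exporter and its oxidase also differed in ratio. Slc40a1 (NM_016917) had 74 reads in the control library and 244 in the RingKO-labelled one, normalised counts of 79.0 and 233. It was 2.97-fold higher (2.28 to 3.91) and was the only iron gene whose interval lay wholly beyond 2-fold, and 669 measured genes had a higher log2 ratio. Among the 1306 genes within 1.5-fold of its mean, 7.43% had a higher log2 ratio than Slc40a1.

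Heph (NM_181273) had 11 reads in the control library and 2 in the RingKO-labelled one, normalised counts of 12.6 and 2.85. Its mean of 7.74 was below the limit of 20, so it was not counted among the measured genes. The ratio of reads was 0.164 with a wide interval (0.0177 to 0.751). RefSeq lists 4 curated transcripts of Heph, and the values are those of the one named. Heph lies on chromosome X, and its value stands beside the difference in sex-linked genes, whose part in it cannot be told apart from that of the genotype.

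The ferritin light chain had the highest values. Ftl1 (NM_010240) had 1220 reads in the control library and 1364 in the RingKO-labelled one, normalised counts of 1286 and 1296. The ratio was 1.01, and the depth left a narrow interval (0.932 to 1.09). As all measured genes had a median log2 ratio of 0.51, Ftl1 at 0.01 had 4499 of them above it. Among the 80 genes within 1.5-fold of its mean, however, the median was 0.04, and 51.2% lay above Ftl1. Ferritin genes have many near-identical processed copies in the genome, so their counts are uncertain.

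Fth1 was represented by NR_073181 alone, a non-coding transcript in RefSeq, with 1 read in the control library and 0 in the RingKO-labelled one. In GENCODE M21 this model has 1494 bases and, unlike in RefSeq, a coding sequence from base 796 to base 1341. Of its bases 923 (61.8%) lie in the coding transcript NM_010239 as well. NM_010239 was not analysed here, so these reads give no level of ferritin heavy chain mRNA and no fold.

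Tfrc (NM_011638) had 18 reads in the control library and 65 in the RingKO-labelled one, normalised counts of 20.01 and 62.7. It was 3.26-fold higher (1.91 to 5.83), and 615 measured genes had a higher log2 ratio. Among the 1790 genes within 1.5-fold of its mean, 13.9% had a higher log2 ratio. Dividing cells and red cell precursors carry much transferrin receptor, so their markers are given beside it. Of 17 listed genes of proliferating crypt cells 16 were in the table and 4 were measured. The 16 had 170 reads in the control library and 358 in the RingKO-labelled one. That is a ratio of 1.90 (1.58 to 2.29), against a median fold of 1.42 over all measured genes. Mki67 had 12 and 32 reads and Pcna 83 and 124, a ratio of 1.35 (1.01 to 1.80) for Pcna. Pcna held 48.8% of the list's control reads, and without it the ratio was 2.42 (1.89 to 3.14). Olfm4 alone of the 16 was at 0 in the control. The part of these cells in the Tfrc value was not tested. Of 12 listed erythroid markers 5 were in the table, with 2 reads over all of them in the control library and 0 in the RingKO-labelled one, and Alas2 and Epor were at 0 in both. The other 7, which include the most abundant transcripts of red cells, were not analysed here.

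Hmox1 (NM_010442) had 39 reads in the control library and 16 in the RingKO-labelled one, normalised counts of 42.1 and 16.1. It was 2.70-fold lower (1.48 to 5.18), and 132 measured genes had a lower log2 ratio. Hmox1 and Slc40a1 are also strongly expressed by macrophages that recycle red cells. The 14 listed macrophage symbols, with Emr1 under both its names, gave 12 genes in the table. These markers had 221 reads in the control library and 289 in the RingKO-labelled one, a ratio of 1.18 whose interval included 1 (0.986 to 1.41). The median fold of all measured genes was 1.42 on the same scale. As a share of all reads these markers were at 0.0285% and 0.0273%, so the direction of their sum follows the scaling. The complement gene C1qa had 66 and 97 reads, Spic was at 0 in both libraries, and Vsig4 and Timd4 were at 0 in the control. Markers with fewer reads in the RingKO-labelled library were Mrc1 at 21 and 14, Cd68 at 7 and 3, Emr1 at 5 and 3 and Marco at 3 and 1, each with an interval that included 1. These markers were named after their values were seen. Markers of fibroblasts and smooth muscle had 83 and 410 reads over 12 genes, a ratio of 4.45 (3.51 to 5.71), and their part in the values of the iron genes was not tested.

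Ratios between iron genes within a library do not depend on how the libraries are scaled. Slc40a1 had 0.961 reads per Cybrd1 read in the control library and 6.42 in the RingKO-labelled one, a 6.68-fold difference (4.08 to 10.98). Tfrc had 0.462 and 4.06 reads per Hmox1 read, an 8.80-fold difference (3.77 to 20.8). Slc40a1 per Tfrc was 4.11 and 3.75, a ratio of 0.913 whose interval (0.479 to 1.68) included 1. Cybrd1 per Hmox1, at 1.97 and 2.38, also had an interval that included 1 (0.570 to 2.61), as did Slc11a2 per Ftl1. The first 2 pairs were chosen for their opposite ratios. The 15 pairs computed share genes, and the intervals are not adjusted for their number.

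**Figure D3:**
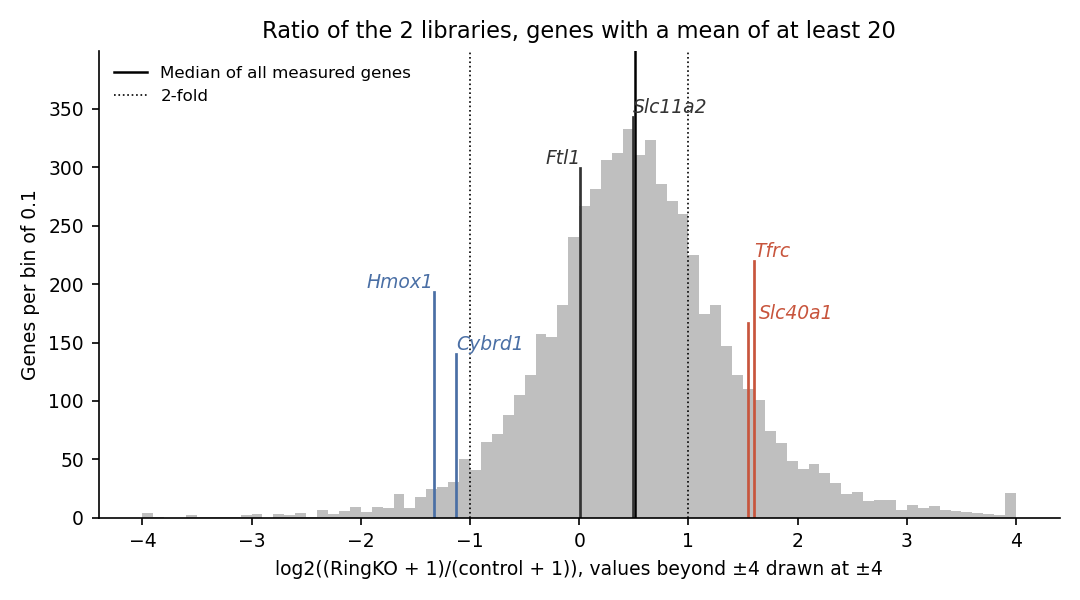
Distribution of log2((RingKO + 1)/(control + 1)) over 6001 measured genes (genes per bin of 0.1), with the 6 measured iron genes as labelled lines, the median as a black line and 2-fold as dotted lines. Slc11a2 lies at the median, Ftl1 to its left, and the other 4 iron genes in the tails.

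Per kilobase of transcript, the order of the levels differed between the libraries. In the control Ftl1 had 1327 normalised reads per kb, followed by Hmox1 at 26.2 (18.6 to 35.8), Slc40a1 at 23.1 (18.2 to 29.0) and Cybrd1 at 15.2 (11.99 to 19.0). The Slc11a2 transcript with the higher mean followed at 9.30 (6.62 to 12.7), Tfrc at 3.88 (2.30 to 6.13) and Heph at 2.97 (1.48 to 5.31). The counting intervals of neighbours in this order overlapped, except between Ftl1 and Hmox1 and between that Slc11a2 transcript and Tfrc. The other Slc11a2 transcript, at 5.92 (3.45 to 9.48), is not in this order, so the order does not place Slc11a2 as a whole. RefSeq lists 4 curated transcripts of Heph and 2 of Tfrc, and 1 of each has values. The order therefore does not place these genes as a whole either.

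In the RingKO-labelled library Ftl1 had 1338 normalised reads per kb and Slc40a1 68.7 (60.4 to 77.9). The Slc11a2 transcript with the higher mean at 13.3 (10.2 to 17.1), Tfrc at 12.6 (9.74 to 16.1) and Hmox1 at 9.68 (5.53 to 15.7) were not separated beyond counting error. The other Slc11a2 transcript had 12.9 (9.23 to 17.5) besides, so Slc11a2 as a whole is not placed by this comparison. Cybrd1 at 6.76 (4.78 to 9.28) overlapped with Hmox1, and the Heph transcript with values had 0.486 (0.0589 to 1.76).

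The direction of some values follows the scaling of the libraries. Cybrd1 and Hmox1 were at least 2-fold lower under all 5 scalings tried. Slc40a1 and Tfrc were above 0 under all 5 and at least 2-fold higher under 4, with log2 ratios of 0.91 and 0.98 under the upper quartile. Slc11a2 ranged from 0.50 with the authors' size factors to -0.13 with the upper quartile, so it has no direction. Ftl1 was at 0.01 with the authors' size factors and below 0 under the other scalings, from -0.29 (total counts) to -0.63 (upper quartile). It was level with the control by the authors' size factors only, and its value follows the scaling.

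**Figure D4:**
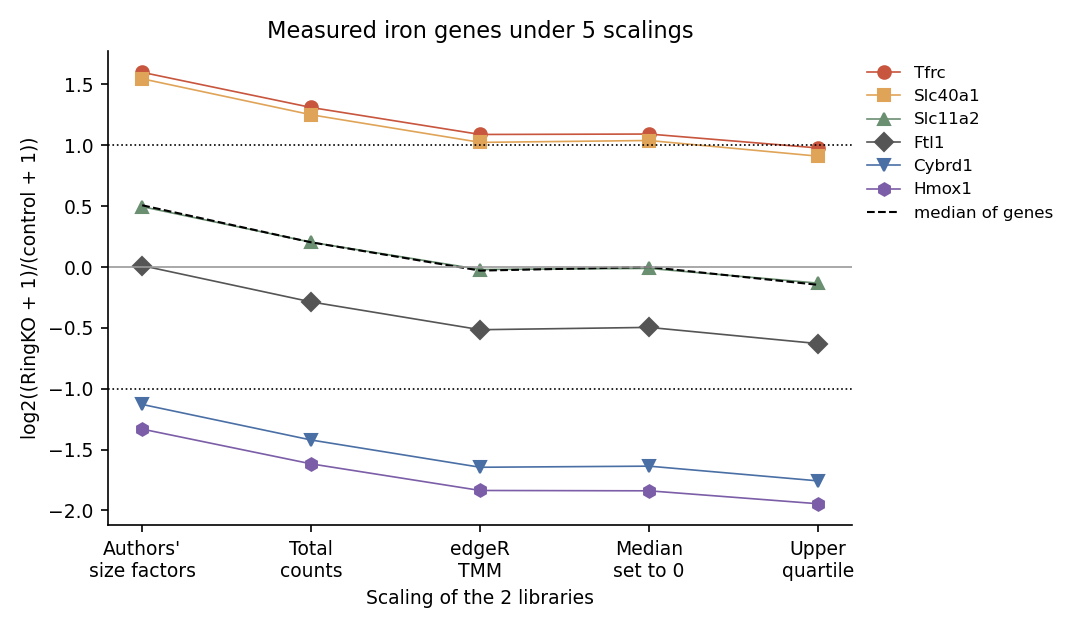
The log2 ratio of the 6 measured iron genes under 5 scalings of the libraries, with the median of measured genes (dashed) and 2-fold (dotted). All lines shift together, Slc40a1 and Tfrc end at 0.91 and 0.98 under the upper quartile, and Slc11a2 and Ftl1 cross or leave 0.

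In the authors' deposited table the unadjusted DESeq p-values of the 9 transcripts of these genes ran from 0.251 for Slc40a1 to 0.994 for Ftl1. They come from 1 library per genotype, without replicates from which to estimate spread.

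Genes around the pathway were taken from lists, and their counts are read against the 26.2% of all measured genes that were higher and the 4.18% that were lower, or against 11.8% and 10.4% relative to the median. Of 19 genes that sense or handle iron in the cytosol 13 were measured, 2 of them higher and 0 lower, with a median log2 ratio of 0.76. That is a smaller share of higher genes than among all genes, and relative to the median 1 lay at least 2-fold above and 1 below. The iron regulatory protein gene Aco1 had 78 reads in the control library and 212 in the RingKO-labelled one, 2.45-fold higher (1.88 to 3.22). The other iron regulatory protein gene, Ireb2, had 131 and 253. Pcbp4, of the poly(rC)-binding family, had 3 and 54 reads, a ratio of 16.2 (5.26 to 81.1). The iron chaperone gene Pcbp1 had 148 and 290 reads, and Nfe2l2, encoding the antioxidant regulator Nrf2, 78 and 175. Epas1, encoding HIF-2α, which drives Cybrd1, Slc11a2 and Slc40a1 in the iron-deficient intestine, had 71 and 110 reads and was not 2-fold different. Hif1a, encoding HIF-1α, had 346 and 231 reads and was the gene below the median. Epas1, Hif1a and Ireb2 were named after their values were seen.

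Of 28 listed genes of mitochondrial iron supply and iron-sulfur cluster assembly 22 were measured, 9 of them higher and 0 lower, with a median log2 ratio of 0.83. The glutaredoxin gene Glrx5, needed for cluster transfer, had 51 and 223 reads, 3.94-fold higher (2.90 to 5.45). Bola3 had 20 and 68, Glrx3 19 and 65, and Narfl 13 and 45. Relative to the median of all measured genes 3 of the 22 lay at least 2-fold above and 0 below, and 3 is near the share among all genes. Of 12 haem synthesis genes 8 were measured, 3 higher and 0 lower, with a median of 0.92. Urod, Fech and Abcb6 were 2.61-, 2.44- and 2.64-fold higher, and Tmem14c had 70 and 150 reads. Relative to the median of measured genes 0 of the 8 lay at least 2-fold above and 1 below.

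Of 14 listed genes of haem uptake, export and breakdown 9 were measured, 2 higher and 1 lower, with a median of -0.21. Relative to the median of all measured genes 1 of the 9 lay at least 2-fold above and 2 below. The gene Blvrb, named as biliverdin reductase B, had 8 reads in the control library and 46 in the RingKO-labelled one, 5.18-fold higher (2.42 to 12.7). The haem transporter gene Slc48a1 had 14 and 44. Lrp1, an endocytic receptor for haemopexin, had 429 and 230 reads, 2.07-fold lower (1.76 to 2.44), and Hebp1, a haem-binding protein gene, 56 and 34. Among other transport and reduction genes 3 of 16 were measured. Cubn, an endocytic receptor of the ileum, had 3 and 49 reads, the lactoferrin gene Ltf 34 and 9, and the lysosomal channel gene Mcoln1 29 and 45. In the list of systemic iron control Bmp2 alone was measured, with 395 and 105 reads, 4.17-fold lower (3.36 to 5.23), and the other 8 genes in the table were each below the limit.

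**Figure D5:**
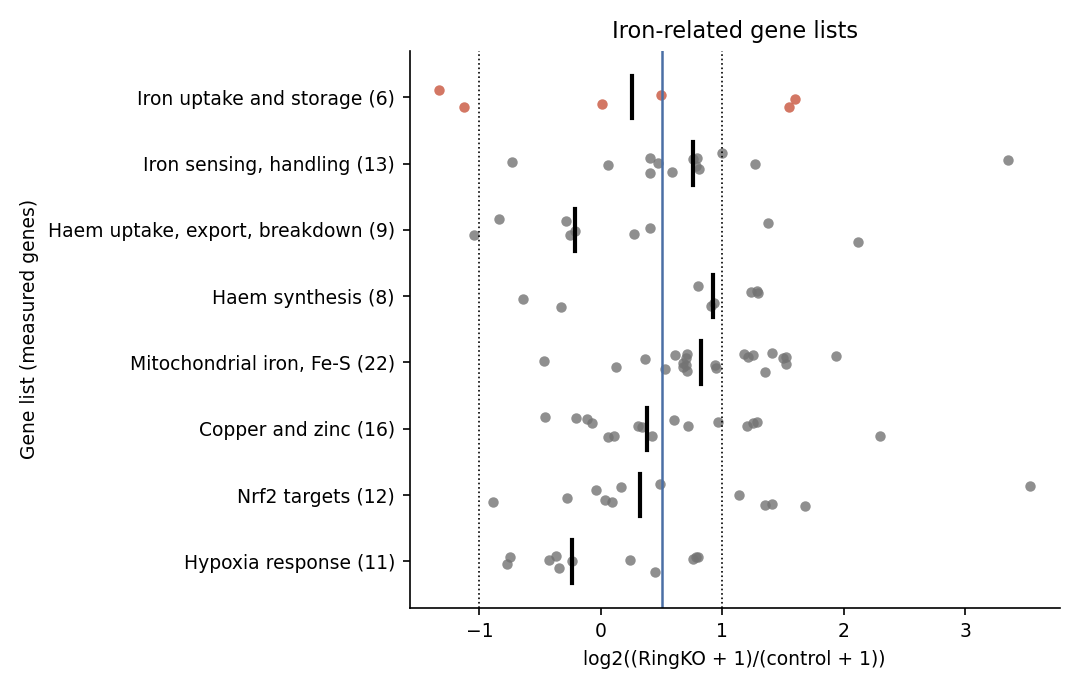
The log2((RingKO + 1)/(control + 1)) of each measured gene (points) in 8 lists, with the list's median as a black bar, the median of all measured genes as a blue line and 2-fold as dotted lines. Medians run from -0.23 for the hypoxia response to 0.92 for haem synthesis, and the iron uptake and storage genes (red) span -1.33 to 1.60.

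Copper and zinc genes (16 measured, median 0.38) had 4 higher and 0 lower, near the 26.2% of all measured genes, and relative to the median 1 lay above and 0 below. The copper importer gene Slc31a1 had 141 and 364 reads, the zinc importer gene Slc39a4 121 and 330, the metallothionein gene Mt2 32 and 88, and the copper chaperone gene Ccs 12 and 74, a ratio of 5.56 (3.00 to 11.2). Nrf2 target genes (12 measured, median 0.33, against 0.51 for all genes) had 5 higher and 0 lower, and relative to the median 2 lay above and 1 below, with Gclm at 69 and 199 reads, G6pdx at 23 and 87, Nqo1 at 12 and 39 and Gstm1 at 8 and 126. Reads of Gstm1 can be shared with close paralogs. Hmox1, also an Nrf2 target, was at -1.33, and of the listed targets Gpx2, with 726 and 435 reads, was at -0.89, Gclc at -0.28 and Tkt at -0.04. The last 3 were named after their values were seen. Hypoxia response genes (11 measured, median -0.23) had 0 higher and 0 lower. Relative to the median of all measured genes 0 of the 11 lay at least 2-fold above and 2 below. The largest absolute log2 ratios were those of Ndrg1 at 215 and 405 reads, Egln3 at 103 and 198, Pdk1 at 24 and 48 and Ero1l at 352 and 228. More of the 11 had a log2 ratio below 0 than above it.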

How the data were processed

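RNA of villi was sequenced from 1 library per genotype after TruSeq RNA v2 preparation, per the labels. TopHat and DESeq were run with the mm9 build, per the submitters' processing notes, which name no version. How reads were counted, and whether by strand, is not given in the sources used here. Signal columns as deposited are DESeq base means (normalised read counts, per the file headers) of 22040 RefSeq transcripts. All values were whole multiples of the column's smallest value (100% within 0.001), none was 0, and reads were recovered as multiples minus 1, an inference from the values. The deposited ratio and log2 columns are the quotient of the signal columns, and the deposited p-value is unadjusted.

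Each symbol was represented by its transcript with the highest mean. Folds are ratios of reads divided by the ratio of the authors' size factors (1.11), with 95% Clopper-Pearson intervals, and levels carry exact Poisson intervals. The main measure used a pseudocount of 1, a mean of at least 20 and a 2-fold limit, with no test. Transcript lengths, models and hairpins came from GENCODE M21 and start-site windows from RefSeq (GRCm38.p6). Values were never joined to these coordinates, since the table was made with mm9. The members and lists were chosen with earlier results of these data known. Named genes were the 8 members, the targeted genes, up to 4 measured genes of each pathway list with the largest absolute log2 ratio, and up to 3 markers with the largest mean. Not every gene so named is given. No gene was named for a like pattern, since 2 libraries give none.

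Alternatives were total-count, upper-quartile, median and TMM scaling (edgeR 4.0.16 in R 4.3.3), a pseudocount of 5, other filters, summed rows, the added read taken off, thinning and the interval rule. Functions were tested on simulated data. Python 3.11.15, pandas 2.3.3, numpy 2.4.6 and scipy 1.17.1 were used.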

Additional observations from a re-analysis of the deposited data

How the results depend on the processing

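No paired analysis was possible because each genotype had 1 library, and no replicate could be left out. Iron genes at least 2-fold higher numbered 2 by the authors' size factors, 0 by upper-quartile scaling, 1 under a minimum mean of 100 and 1 by the interval rule (counting interval wholly past 2-fold). Those at least 2-fold lower numbered 2, then 0 under a minimum mean of 100 and 0 by the interval rule. A minimum mean of 100 left only Slc40a1 and Ftl1 of the 8, so fewer genes were counted. Without a filter Heph joined the lower genes, 3 in all. All measured genes numbered 1574 higher and 251 lower. Other scalings gave 972 and 436 (total counts), 528 and 818 (upper quartile), 657 and 665 (TMM) and 711 and 626 (median at 0). Thinning gave 883 and 402, dropping the filter 3704 and 892, a minimum mean of 100 gave 358 and 104, and the interval rule 627 and 104. The higher share of calls was 86.2% by the authors' size factors, 69.0% by total counts, 53.2% by the median, 49.7% by TMM and 39.2% by the upper quartile. Of the 8 genes' log2 ratios under other settings 54 stayed inside the gene's counting interval, 10 left it (all of Slc11a2, Slc40a1 or Ftl1), and 0 of the called ones changed sign. Genes with few reads stay inside more easily, and the Fth1 interval of 0 to 35.2 was too wide to leave. Under the upper quartile Tfrc went from 1.60 to 0.98 inside its wide interval, and Slc40a1 from 1.55 to 0.91 outside its narrower one. A mean of 20 to 200 and symbols with 1 row were settings chosen after seeing the data, and both left 2 iron genes higher and 2 lower. The marker sums without their most abundant gene were also added after seeing the data. Heph and Fth1 had the fewest reads, 13 and 1 over both libraries. Each is the count of 1 transcript among other curated ones of its gene, so depth is not the only limit.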

Other observations

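Start-site windows from RefSeq (250 bases before to 50 after the start, GRCm38.p6) were at hand for 4 of the 8 genes, Cybrd1, Ftl1, Fth1 and Tfrc, in 6 windows. On both strands, the hypoxia response element core ACGTG was found in both Tfrc windows, which overlap each other, and in no window of the other 3 genes, against 19.6% of 32851 windows. The other form of that core, GCGTG, was found in every window of Cybrd1, Ftl1 and Tfrc. Of Fth1 only the downstream window held it, against 32.4% of all windows. The share is per window, and a gene with more windows has more chances of a match. The antioxidant response element core, TGAC and GC with 3 bases of any kind between them, was in none of the 6 windows, against 12.4% of all windows. A match is a run of letters and not a site in use, and no match says only that the letters are not in the window.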
